A study of Mus musculus with 9 samples.

Results

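The 9 genes described here encode the interferon receptors, the Janus kinases bound to those receptors, and a pair of feedback inhibitors that act on the kinases. They are Ifnar1 and Ifnar2, Ifngr1 and Ifngr2, Jak1, Jak2 and Tyk2, and Socs1 and Socs3. They were chosen by symbol from the 54532 genes counted in mouse kidney, and all 9 were found and passed the filter on low counts. In these kidneys, where genes induced by interferon were many times higher in Trex1-/- animals than in wild type, the receptor and kinase transcripts differed between groups by at most 0.23 on the log2 scale. None of the 9 genes passed the test in any comparison. Socs1 had the largest fitted change, at 2.46-fold higher in Trex1-/- kidney, and its call depended on the test.

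Type I interferons bind a receptor made of IFNAR1 and IFNAR2, which hold TYK2 and JAK1, and interferon gamma binds IFNGR1 and IFNGR2, which hold JAK1 and JAK2. The activated kinases phosphorylate STAT proteins, and the STAT complexes enter the nucleus and bind interferon-stimulated response elements (ISRE) or gamma-activated sites (GAS) near their target genes. SOCS1 and SOCS3 are made in response to the same signal and block the kinases, so their transcripts are commonly read as a trace of recent JAK and STAT signalling. TREX1 is a nuclease that clears DNA from the cytosol, and without it that DNA activates cGAS and STING, which induce type I interferon.

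Kidney RNA from 3 groups of 3 libraries was sequenced, all labelled C57BL/6J. They were wild type (WT), Trex1-/- with PBS (KO) and Trex1-/- with SN-011, a STING antagonist (KO_SN011). The study's methods state that Trex1-/- offspring of heterozygous matings, 1 month old at the start, were injected into the abdomen each day for 2 weeks with 10 mg/kg SN-011 or with its vehicle, PBS holding a detergent. The wild type mice were bought separately, so they were not littermates, and no injection is stated for them. The knockout is inherited, so both Trex1-/- groups carry it in all tissues. A figure legend of the study gives n = 3 per group for the kidney of Trex1-/- mice given SN-011, without saying what n counts. It names no wild type group, and the labels tie no library to an animal.

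Each library held 16118813 to 21928965 counts. Trex1 was listed at 0 in all 9 libraries, wild type included. Its 1147 exonic bases lie wholly inside exons of Atrip on the same strand, so the gene itself does not check the labels. Kidney markers were high throughout, with Slc34a1, a phosphate transporter of the proximal tubule, at 4849 to 5112 CPM (counts scaled by TMM to a common library total) over the group means. The 3 KO libraries, WT replicate 3 and KO_SN011 replicate 2 carried reads of Y-linked genes, and the other 4 libraries carried Xist instead. WT and KO_SN011 each held both kinds, so each held RNA of more than 1 animal. Since this difference runs across the groups, values with it as a term in the fit are given beside several of the changes.

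The promoters of the 9 genes are shown first where they bear on interferon signalling. In RefSeq sequence of GRCm38.p6, all 9 genes had a window of 250 bases before to 50 bases after the start site. An ISRE was searched as GAAA, any 2 bases and GAAA again, and a GAS as TTC, any 3 bases and GAA, on both strands. Among 32851 promoter windows of this length, 3.44% held the first and 8.3% the second, and among the 9 genes 1 held the first and 3 the second. Socs1 was the gene with an ISRE, and it held a pair of overlapping matches that begin 83 and 77 bases before its start. GAS matches lay 214 bases before the RefSeq start of Ifnar2, 154 bases before that of Socs3, and across that of Ifnar1. The gene model of Socs3 whose coordinates are given below starts further upstream, at 117970047 on the minus strand. The Socs3 match therefore lies inside that model. A match is a run of letters and not a shown binding site. The 250 bases upstream of Socs1, on the minus strand at chr16:10785537-10785786, and the sites of Socs3 (minus strand, chr11:117969502-117969530) and Ifnar2 (plus strand, chr16:91372559-91372587) with their flanks are given 5′ to 3′, with the matched letters in capitals.
Socs1: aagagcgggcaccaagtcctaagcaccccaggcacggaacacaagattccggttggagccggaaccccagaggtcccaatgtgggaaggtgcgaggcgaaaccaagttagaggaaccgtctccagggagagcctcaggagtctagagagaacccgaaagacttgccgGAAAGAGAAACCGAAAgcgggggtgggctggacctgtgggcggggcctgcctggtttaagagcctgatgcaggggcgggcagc
Socs3: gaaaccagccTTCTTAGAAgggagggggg
Ifnar2: tgccaaggccTTCCTGGAAgaagagagta

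Of the 4 receptor genes, 3 sit side by side. On GRCm38 (mm10), Ifnar2 (ENSMUSG00000022971) lies at chromosome 16, 91372783 to 91405589, Ifnar1 (ENSMUSG00000022967) at 91485238 to 91507441, and Ifngr2 (ENSMUSG00000022965) at 91547072 to 91565623. Together with Il10rb, which lies between the first pair and encodes the second chain of the interleukin 10 and interferon lambda receptors, they span 192.841 kb on the plus strand. Ifngr1 (ENSMUSG00000020009) is on chromosome 10, 19591949 to 19610229. The kinases are spread over the genome, with Jak1 (ENSMUSG00000028530) on chromosome 4, 101152367 to 101265282, Jak2 (ENSMUSG00000024789) on chromosome 19, 29251828 to 29313080, and Tyk2 (ENSMUSG00000032175) on chromosome 9, 21104068 to 21131243. Tyk2 shares its chromosome with Trex1 but lies 87.9 Mb from it. Socs1 (ENSMUSG00000038037) is on chromosome 16, 10782240 to 10785536, and Socs3 (ENSMUSG00000053113) on chromosome 11, 117966079 to 117970047. Of the 3329 exonic bases of Ifnar2, 315 are shared with Gm21970 on the same strand, and 554 of the 6865 of Tyk2 lie opposite 1700084C06Rik, so reads there cannot be assigned with certainty.

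Levels were compared between genes per kilobase of merged exons. In wild type kidney Jak1 was the most abundant, at 18.9 ± 0.726 CPM per kb (SD, n = 3), followed by Ifngr1 at 15.1 ± 2.72 CPM per kb. Jak2 at 8.08 ± 1.51 and Ifnar1 at 7.83 ± 0.657 CPM per kb overlapped, as did Ifnar2 at 6.51 ± 0.614 and Ifngr2 at 5.74 ± 0.549 CPM per kb. Tyk2 stood below all receptors at 4.01 ± 0.111 CPM per kb. The inhibitors were lowest, with Socs3 at 1.59 ± 0.647 and Socs1 at 0.587 ± 0.219 CPM per kb. The order of the means was the same in KO kidney, where Socs1 at 1.45 ± 0.241 CPM per kb overlapped with Socs3 at 2.38 ± 1.30 CPM per kb. Ranges there also overlapped between Jak2 and Ifnar1, Ifnar1 and Ifnar2, Ifnar2 and Ifngr2, and Tyk2 and Socs3. In KO_SN011 kidney Ifnar1 and Jak2 changed places, as did Ifngr2 and Ifnar2, and the ranges of the latter pair overlapped. Those of Jak1 and Ifngr1 overlapped there too.

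Ifnar1, the chain that holds TYK2, was close in wild type and KO kidney and highest with SN-011. Its level was 46.5, 50.4 and 42.6 CPM in the WT libraries, 46.6, 45.1 and 38.3 CPM in KO and 52.4, 49.6 and 50.6 CPM in KO_SN011. Every SN-011 library lay above every PBS library, while both overlapped with wild type. The log2 fold change between KO_SN011 and KO was 0.23 (95% interval 0.012 to 0.45), with an unadjusted p of 0.0404 and an adjusted p of 0.414 in edgeR's quasi-likelihood test over 16646 genes. In that comparison 16.1% of all genes had groups that did not overlap and 11.4% an unadjusted p under 0.05, so a separation of this kind was common. Between KO and WT the change was -0.10 (-0.32 to 0.11). With the Y-linked term these changes were 0.15 and -0.02. In bulk tissue, a change in the number of cells of a type and a change in RNA per cell cannot be told apart, here or for any gene below.

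Ifnar2, the chain that holds JAK1 and binds interferon most tightly, did not separate any groups. It stood at 22.8, 19.3 and 22.9 CPM in WT, 23.9, 22.5 and 19.8 CPM in KO and 18.2, 20.1 and 22.3 CPM in KO_SN011. All 3 groups overlapped. The log2 fold change was 0.03 (-0.23 to 0.29) between KO and WT, and -0.13 (-0.39 to 0.13) between KO_SN011 and KO.

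The balance of the receptor chains was also compared within each library, where no scaling enters. The log2 ratio of Ifnar2 to Ifnar1 counts was -1.10 ± 0.253 in WT, -0.97 ± 0.026 in KO and -1.34 ± 0.173 in KO_SN011 (SD, n = 3). Every SN-011 library had a lower ratio than every PBS library. The difference was -0.36, and its two-sided p in an exact permutation test was 0.1, the smallest that 3 against 3 libraries can give, and an adjusted p of 0.9 over the 9 ratio comparisons made. The ratio of Ifngr2 to Ifngr1 was between -0.99 and -0.92 in the group means, and its exact permutation p values were 0.4 to 1.

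Ifngr1, the chain that binds interferon gamma, varied within WT and KO_SN011 more than within KO. Its level was 38.6, 38.4 and 51.9 CPM in WT, 50.6, 48.5 and 46.3 CPM in KO and 39.7, 53.6 and 43.7 CPM in KO_SN011. WT replicate 3 and KO_SN011 replicate 2 were high within their groups, and both carried Y-linked reads. The fitted change between KO and WT was 0.18 (-0.14 to 0.49), and with the Y-linked term in the fit it was -0.08. Between KO_SN011 and KO it was -0.09, and with that term 0.17. Ifngr2, which completes the receptor, stood at 23.8, 19.6 and 21.4 CPM in WT, 25.3, 24.9 and 23.2 CPM in KO and 22.7, 26.1 and 23.1 CPM in KO_SN011. The groups overlapped, and the change between KO and WT was 0.18 (-0.05 to 0.41), adjusted p = 0.438 in edgeR.

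The difference by sex-linked reads was then read over all 9 genes, a check chosen after seeing the data. The 5 libraries with Y-linked reads had 46.3 to 53.6 CPM of Ifngr1, with a median of 50.6, and the 4 with Xist had 38.4 to 43.7 CPM, with a median of 39.2. These sets did not overlap, as was the case for 8.97% of all genes. In the fit with the groups, the Y-linked term of Ifngr1 was 0.40 in log2 units (SE 0.082), with an edgeR adjusted p of 0.0256, and 3.65% of all genes passed this test. Ifngr1 was the only one of the 9 to pass. Jak2 had the next smallest p, with a term of -0.27 (SE 0.106, edgeR adjusted p = 0.206), and its libraries with Y-linked reads ranged from 33.0 to 41.1 CPM against 40.6 to 48.2 CPM in those with Xist. No KO library carried Xist, so KO and WT could not be compared within such libraries, and the libraries with Y-linked reads include 1 of WT and 1 of KO_SN011.

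**Figure D1:**
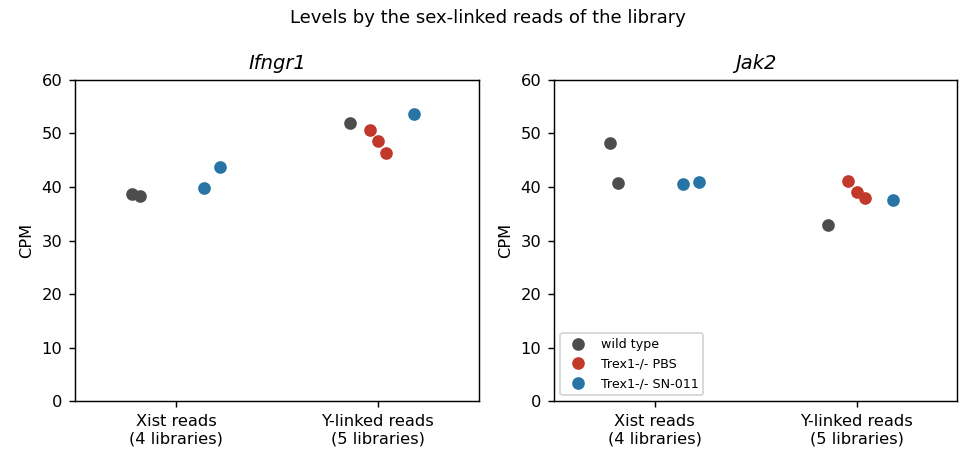
Level of Ifngr1 (left) and Jak2 (right) in CPM, with 1 point per library, split on the horizontal axis by whether the library carries Xist reads (4 libraries) or Y-linked reads (5 libraries) and coloured by group. The 5 points of Ifngr1 with Y-linked reads lie at 46.3 to 53.6 CPM, above the 4 others at 38.4 to 43.7 CPM, while those of Jak2 overlap slightly in the opposite order.

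Jak1, the kinase shared by these receptors, differed little between wild type and KO. It had 132, 142 and 135 CPM in WT, 149, 154 and 142 CPM in KO and 137, 186 and 133 CPM in KO_SN011. The KO libraries lay above the WT libraries, although the closest pair both rounded to 142 CPM, and KO_SN011 replicate 2 stood apart from the rest. The change between KO and WT was 0.12 (-0.15 to 0.40), adjusted p = 0.688 in edgeR, and 25.4% of all genes had groups that did not overlap in this comparison. Without KO_SN011 replicate 2, the change between KO_SN011 and KO moved from 0.03 to -0.15. With the Y-linked term it was 0.17, and the change between KO and WT was -0.03.

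Jak2, which pairs with IFNGR2 and also serves growth hormone and erythropoietin receptors, had 48.2, 40.8 and 33.0 CPM in WT, 41.1, 39.0 and 38.0 CPM in KO and 40.6, 37.6 and 40.9 CPM in KO_SN011. The WT libraries held both the highest and the lowest value. The change between KO and WT was -0.05 (-0.32 to 0.23), and with the Y-linked term it was 0.14. Between KO_SN011 and KO it was 0.01, and with that term -0.17. Tyk2, the partner of IFNAR1, had 28.4, 27.1 and 27.2 CPM in WT, 30.1, 29.8 and 26.2 CPM in KO and 28.1, 27.6 and 30.5 CPM in KO_SN011. Its change was 0.06 (-0.14 to 0.26) between KO and WT and 0.0027 (-0.20 to 0.20) between KO_SN011 and KO, the narrowest intervals among the 9 genes. The log2 ratio of Jak2 to Jak1 counts was -1.76 ± 0.294 in WT, -1.92 ± 0.060 in KO and -1.92 ± 0.335 in KO_SN011, with exact permutation p values of 0.5 to 1.

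Socs1, the inhibitor that binds JAK1, JAK2 and TYK2, was higher in every KO library than in every WT library, and lay between them with SN-011. It had 2.36, 1.08 and 1.68 CPM in WT, 3.41, 4.73 and 4.48 CPM in KO and 2.44, 2.38 and 4.04 CPM in KO_SN011. The SN-011 libraries were all above the WT libraries, by a small margin for the lowest, and overlapped with KO. Of all genes, 25.4% had KO and WT groups that did not overlap. These are low levels, resting on 24 to 81 counts per library, for which counting error alone is 11.1% to 20.4%.

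Between KO and WT the log2 fold change of Socs1 was 1.30 (SE 0.323, 95% interval 0.58 to 2.02), with an unadjusted p of 0.00229 and an edgeR adjusted p of 0.0782. An unadjusted p under 0.05 was found for 15.2% of all genes. Socs1 therefore did not pass, in a comparison where 1.88% of all genes did (1.44% higher and 0.439% lower). The adjusted p ranged from 0.00708 to 0.290 over 19 alternatives, and the log2 fold change from 1.05 to 1.61. It was under 0.05 in 5 of them, at 0.00708 with DESeq2, 0.00875 with edgeR's exact test, 0.0152 with no filter on low counts, 0.0416 with the 6 compared libraries alone and 0.0448 without KO_SN011 replicate 2. With the Y-linked term the change was 1.47, adjusted p = 0.145. Among libraries with Y-linked reads, the WT library had 1.68 CPM and the KO libraries 3.41 to 4.73 CPM.

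Against KO, the fitted change of Socs1 with SN-011 was -0.51 (-1.21 to 0.18), adjusted p = 0.565 in edgeR, and with the Y-linked term it was -0.69. Against WT it was 0.79 (0.062 to 1.51), adjusted p = 0.245 in edgeR with an unadjusted p of 0.0361. With 1 library left out, the first ranged from -0.80 without KO_SN011 replicate 3 to -0.38 without KO_SN011 replicate 2, and the second from 0.50 without KO_SN011 replicate 3 to 1.10 without WT replicate 1. No overlap between KO_SN011 and WT was seen for 21.7% of all genes, and 18% had an unadjusted p under 0.05.

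Summed markers of immune cells were also higher in KO than in WT, but they did not follow Socs1 over single libraries. In KO_SN011 all 3 sums given here were highest in replicate 2, where Socs1 was lowest. In KO all 3 were lowest in replicate 2, where Socs1 was highest. The summed level of 7 T cell markers was 6.22 to 8.85 CPM in WT, 15.8 to 26.5 CPM in KO and 8.10 to 18.7 CPM in KO_SN011, and 2 of the 7, Cd3g and Cd4, were called higher in KO than in WT. The summed level of 10 myeloid markers was 178 to 208 CPM in WT, 286 to 317 CPM in KO and 169 to 265 CPM in KO_SN011, with 3 of the 10 called higher in KO (Fcgr1, C1qa and C1qb). The summed level of 6 B and plasma cell markers was 9.57 to 10.1 CPM in WT, 20.1 to 24.97 CPM in KO and 14.1 to 34.1 CPM in KO_SN011. Of the 4 tested, 1 was called higher in KO, Jchain, which joins antibody units. The median log2 fold change of these 4 was 0.20 between KO and WT, with 3 above 0. Between KO_SN011 and WT it was -0.35, with 1 above 0. No marker of these lists was at 0 in all libraries, and all 3 sums were higher in every KO library than in every WT library. Of all genes, 1.44% were called higher in KO than in WT. The part of these cells in the Socs1 result was not tested.

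Socs3, the inhibitor that answers mainly to STAT3 and the interleukin 6 family, varied widely within each group. It had 3.58, 3.48 and 6.77 CPM in WT, 11.1, 5.49 and 4.04 CPM in KO and 8.95, 9.51 and 5.22 CPM in KO_SN011. KO replicate 1 was the highest of all libraries, KO replicate 3 was among the lowest, and all 3 groups overlapped. The log2 fold change between KO and WT was 0.59 (-0.30 to 1.48), adjusted p = 0.527 in edgeR, and with the Y-linked term it was 0.19. Between KO_SN011 and KO it was 0.20, and with that term 0.63. Between KO_SN011 and WT it was 0.79 (-0.10 to 1.68), adjusted p = 0.335 in edgeR. The intervals against WT reach from below 0 to beyond 1.5-fold, so these libraries do not bound the change of Socs3 at that size.

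**Figure D2:**
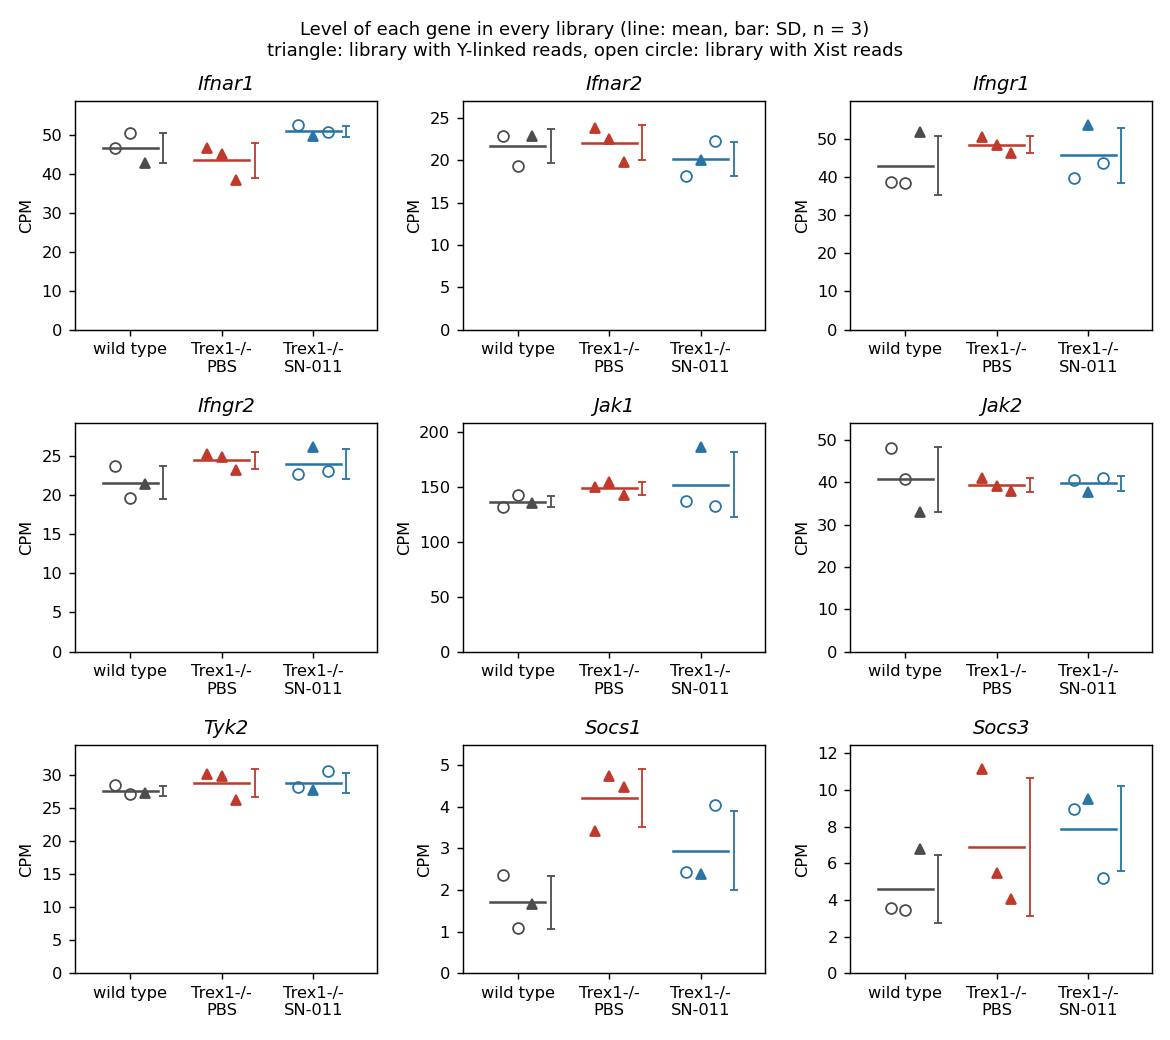
Level of each of the 9 genes in CPM (vertical axes, from 0) in the WT, KO (Trex1-/- PBS) and KO_SN011 (Trex1-/- SN-011) libraries, with the group mean as a line and the SD as a bar (n = 3), triangles for libraries with Y-linked reads and open circles for those with Xist. The receptor and kinase panels are near level, and in the Socs1 panel the KO points at 3.41 to 4.73 CPM stand above the WT points at 1.08 to 2.36 CPM.

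Taking the 9 genes as a list, none was called in any of the 3 comparisons by edgeR, where 1.88% (KO against WT), 0% (KO_SN011 against KO) and 1.28% (KO_SN011 against WT) of 16646 genes were called. In each comparison 1 gene had an unadjusted p under 0.05, namely Socs1, Ifnar1 and Socs1, against 15.2%, 11.4% and 18% of all genes. The median log2 fold change of the 9 was 0.12, 0.0027 and 0.13, against 0.0028, -0.0053 and -0.0034 over all genes tested. The 95% interval lay within 1.5-fold for 7 of the 9 genes in each comparison, all but Socs1 and Socs3, as it did for 53.2%, 54% and 52% of all genes. For the 4 receptor chains and 3 kinases, a change of 1.5-fold or more therefore lay outside the interval in each comparison. The last of the comparisons shares the WT libraries with the first and the KO_SN011 libraries with the second, so the 3 are not independent.

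**Figure D3:**
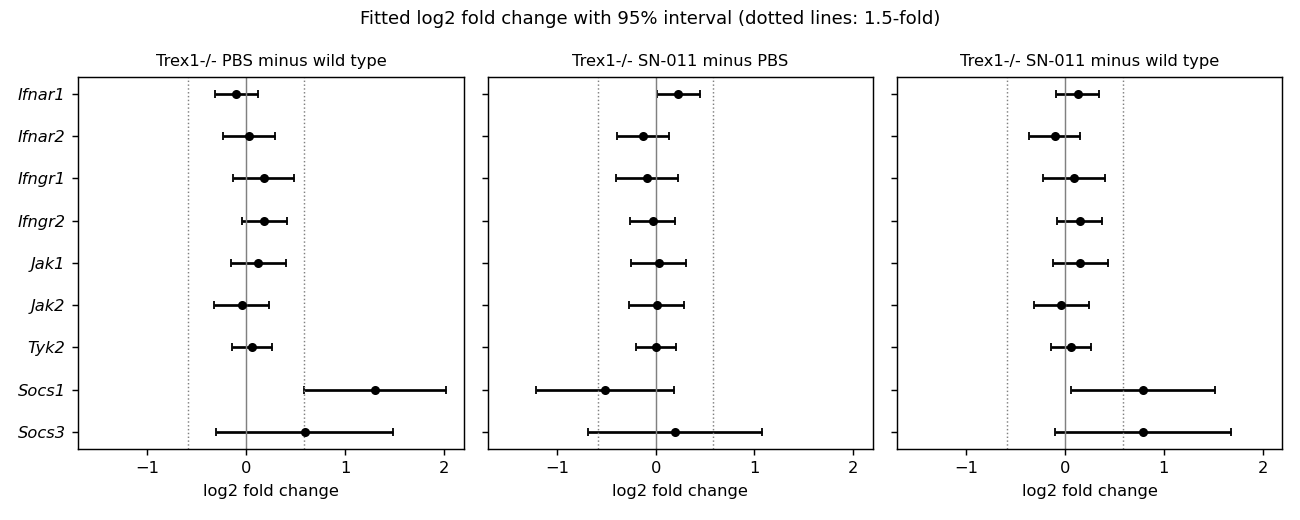
Fitted log2 fold change of each gene with its 95% interval in the 3 comparisons, where 0 is no difference and the dotted lines mark 1.5-fold in either direction. The intervals of the 7 receptor and kinase genes lie between the dotted lines in each panel, and those of Socs1 and Socs3 reach past them.

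The rest of the pathway was read from lists of ligands, receptors, STAT proteins, inhibitors and targets. Of 20 interferon genes, 17 had no read in any library. For uniquely mapped pairs, the only ones counted, this allows a level of up to 0.135 to 0.186 CPM per library (3 counts, counting error only). Ifnb1, the type I interferon induced first by STING in many cells, was among the 17. The other 3 were Ifnk, with 0, 0 and 1 counts in WT, 0, 0 and 2 in KO and 2, 9 and 4 in KO_SN011, and Ifng and Ifnl3 with at most 2 counts each, and the filter on low counts left all 3 out. The counts of Ifnk in KO_SN011 lay above those in WT, and in the fit with no filter this difference did not pass (edgeR adjusted p = 0.203). Interleukin 6 (Il6), a strong inducer of SOCS3, had 0 to 4 counts.

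Among 21 tested receptors of the same superfamilies, 1 was called in KO against WT and none in the other comparisons, where 1.88%, 0% and 1.28% of all genes were called in KO against WT, KO_SN011 against KO and KO_SN011 against WT. This was Il2rg, the common gamma chain carried by lymphocytes, at 2.23 ± 0.680 CPM in WT, 6.47 ± 0.967 in KO and 3.95 ± 0.696 in KO_SN011 (SD, n = 3), with a log2 fold change of 1.54 between KO and WT (edgeR adjusted p = 0.0102). It no longer passed with the Y-linked term or without WT replicate 1, WT replicate 2 or KO replicate 2, at adjusted p of 0.0545 to 0.0657. The summed immune markers given beside Socs1 were higher in KO than in WT too, and their part in the Il2rg result was not tested. Il10rb stood at 31.4 ± 1.38, 26.7 ± 1.36 and 30.2 ± 5.06 CPM in WT, KO and KO_SN011, and Il6st, the shared chain of the interleukin 6 receptors, at 163 ± 5.89, 190 ± 23.0 and 179 ± 28.4 CPM. Jak3, the remaining Janus kinase, was at 36.5 ± 4.08, 38.6 ± 4.68 and 36.5 ± 2.34 CPM.

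Downstream of the kinases, Stat2 and Irf9, which encode parts of the complex that type I interferon sends to the nucleus, were called higher in KO than in WT. Stat2 had 30.1, 27.5 and 30.3 CPM in WT, 73.3, 96.4 and 68.9 CPM in KO and 49.98, 55.9 and 60.6 CPM in KO_SN011, with no overlap among the groups. Its log2 fold change was 1.44 between KO and WT (SE 0.132, edgeR adjusted p = 3.34e-04) and 0.92 between KO_SN011 and WT (SE 0.131, edgeR adjusted p = 0.0110). Irf9 was higher by 0.86 in KO and by 0.69 in KO_SN011, both past the threshold. Between KO_SN011 and KO, the changes of -0.52 and -0.17 did not pass in edgeR (adjusted p of 0.241 and 0.498). That of Stat2 passed in 1 of 19 alternatives, over which its adjusted p ran from 0.0464 with DESeq2 to 0.650. The Stat2 and Irf9 calls against WT in KO_SN011 kidney were lost without WT replicate 1 or WT replicate 2, at adjusted p of 0.0533 to 0.0637.

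Of the 10 interferon-stimulated targets, 9 were called higher in KO than in WT, namely Mx1, Cxcl9, Cxcl10, Isg15, Ifit1, Irf7, Oas1a, Gbp2 and Irf1 but not Ciita, with log2 fold changes from 0.87 for Irf1 to 4.13 for Mx1 and a median over the 10 of 3.10, where 1.44% of all genes were called higher. In KO_SN011 against WT 7 were called higher, all of these but Irf1 and Cxcl9, and the median was 1.98, where 0.823% of all genes were called higher and 0.457% lower. None was called between KO_SN011 and KO by edgeR, where 0% of all genes were called. All 10 had fitted changes below 0 in this comparison, with a median of -1.15. The KO_SN011 and KO groups did not overlap for any of the 10 but Ciita, as for 16.1% of all genes. The unadjusted edgeR p ran from 1.99e-04 for Ifit1 to 0.405 for Ciita, and 11.4% of all genes had one under 0.05. Of 9 targets linked to STAT3, none was called in any comparison by edgeR, where 1.88%, 0% and 1.28% of all genes were. Their fitted changes between KO and WT ran from -1.22 for Cebpd (edgeR adjusted p = 0.0539) to 0.59 for Bcl3 (edgeR adjusted p = 0.0804), with a median of 0.046, and this pair was named after the values were seen. Stat3 itself was at 103 ± 1.96, 131 ± 12.7 and 149 ± 18.9 CPM in WT, KO and KO_SN011. Its change of 0.54 between KO_SN011 and WT passed at an edgeR adjusted p of 0.0479 but in only 8 of 19 alternatives.

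Among 13 other negative regulators, 12 had fitted changes above 0 between KO and WT, and 1 was called higher. Usp18, which displaces JAK1 from IFNAR2, rose from 6.60, 7.27 and 8.50 CPM in WT to 44.2, 59.4 and 49.7 CPM in KO, and stood at 22.5, 28.8 and 35.0 CPM in KO_SN011. The 3 groups did not overlap. Its log2 fold change was 2.78 between KO and WT (SE 0.183, edgeR adjusted p = 7.59e-05) and 1.95 between KO_SN011 and WT (SE 0.180, edgeR adjusted p = 0.00206), and it was the only one of 13 other negative regulators called in either, where 1.88% and 1.28% of all genes were called. Between KO_SN011 and KO its change of -0.83 did not pass (edgeR adjusted p = 0.210), though it passed in 4 of 19 alternatives, over which the adjusted p ran from 0.00255 with DESeq2 to 0.650 without KO replicate 2. The phosphatase genes Ptpn1 at 51.3 ± 2.95, 66.2 ± 5.24 and 69.5 ± 13.8 CPM and Ptpn2 at 15.6 ± 0.745, 18.1 ± 2.57 and 18.9 ± 0.819 CPM in WT, KO and KO_SN011 were not called.

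Within the SOCS family, the 1 member that passed had a fitted change of the opposite sign to that of Socs1. Cish, a feedback gene of STAT5 downstream of growth hormone and cytokines, fell from 67.2, 62.1 and 43.4 CPM in WT to 29.8, 29.6 and 17.3 CPM in KO, and was at 34.3, 20.8 and 22.3 CPM in KO_SN011. Every WT library lay above every Trex1-/- library. The log2 fold change was -1.17 between KO and WT (SE 0.254, edgeR adjusted p = 0.0484) and -1.16 between KO_SN011 and WT (SE 0.254, edgeR adjusted p = 0.0604). The first call was fragile, since it passed in 11 of 19 alternatives and was lost with the Y-linked term (-0.81, adjusted p = 0.202), with only genes of a mean of at least 50 counts (adjusted p = 0.0564) and without any one of WT replicates 1 and 2, the 3 KO libraries or KO_SN011 replicate 3 (adjusted p of 0.0573 to 0.179). The second passed in 7 of 19 alternatives, over which its adjusted p ran from 3.94e-04 to 0.183. Socs2, which limits growth hormone signalling, had 30.2, 17.9 and 17.8 CPM in WT, 16.1, 10.3 and 9.45 CPM in KO and 11.4, 14.4 and 9.97 CPM in KO_SN011, and its changes of -0.88 against WT in both groups did not pass (edgeR adjusted p of 0.138 and 0.122). Each passed in 3 of 19 alternatives, with no filter, DESeq2 and edgeR's exact test, and the adjusted p ran from 0.0150 to 0.416 in KO and from 0.0151 to 0.304 in KO_SN011. The other 4 members of this family had fitted changes between -0.33 and 0.14 in KO against WT.

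**Figure D4:**
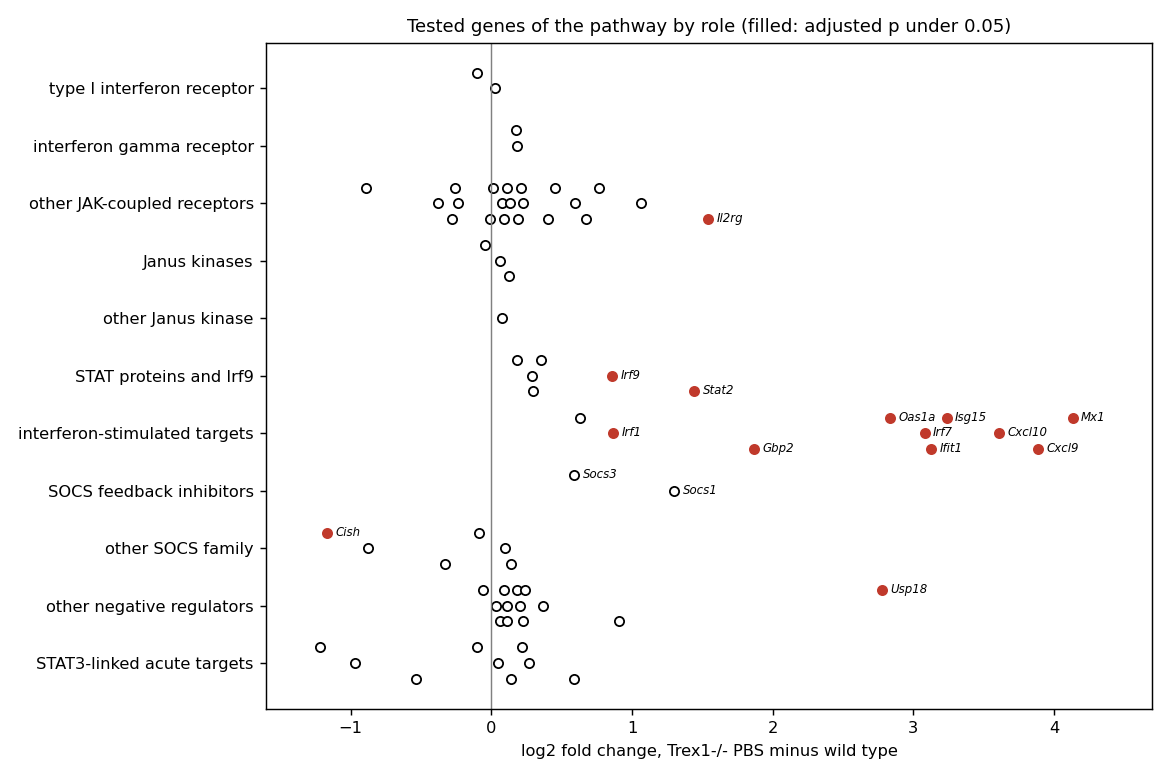
Fitted log2 fold change between Trex1-/- PBS and wild type kidney (horizontal axis) for tested genes of the pathway, in rows by role, with filled points for genes called at an edgeR adjusted p under 0.05 and open points for the rest. The 4 interferon receptor and 3 kinase genes among the 9 lie near 0, Il2rg among the other receptors lies at 1.54, Stat2 at 1.44, Usp18 at 2.78 and Mx1 at 4.13, while Cish lies at -1.17 and Socs1, not called, at 1.30.

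The genes with the most similar pattern over the 9 libraries were found by Pearson's r of log2 CPM among 14841 genes, as a description. For Socs1 they were Trim34a (0.961), Tap2 (0.960) and Fbxw17 (0.958), and Socs1 had r of 0.84 with Isg15. For Ifngr1 they were Igf2r (0.964), Cyp7b1 (0.957) and Tk1 (0.956), and for Ifnar1 Zbtb39 led at 0.977. Socs3 had weaker partners, led by Zmat3 at 0.913. Within the 9 genes, Ifngr1 and Jak2 had r of -0.69 and Ifngr2 and Socs1 r of 0.68, while the neighbours Ifnar1 and Ifnar2 had r of -0.28. These values share the group and sex-linked differences between libraries described above.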

How the data were processed

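Raw gene counts of 9 kidney libraries were analysed. The authors deposited 1 table of counts per library. According to the study's methods they trimmed paired reads of polyA RNA with Trimmomatic, mapped them with hisat2 and counted uniquely mapped pairs with featureCounts, and the submitters' processing notes name mm10. Versions, the annotation and the strand setting are not given in the sources used here. Of 54532 gene identifiers, 54495 matched GENCODE vM21 symbols.

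Counts were fitted in edgeR 4.0.16 (R 4.3.3) with TMM factors, filterByExpr (minimum count 10, minimum total 15) and the quasi-likelihood F test, with 1 mean per group in 1 fit of 9 libraries. Benjamini-Hochberg adjustment covered all 16646 genes tested, and a gene was called at an adjusted p under 0.05. Intervals are 95% from the same fit. Within-library ratios were compared by exact permutation. The scripts were tested on simulated data. Replicate tables differed by more than counting noise. The difference was largest between KO_SN011 replicate 2 and the others of its group, followed by WT replicate 3 within its group. Alternatives used DESeq2 1.42.0, limma 3.58.1, other scalings, filters, samples and covariates.

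The 9 genes and all lists were chosen with earlier results of these data known. Named genes are the 9, Trex1 and Atrip, a fixed set of pathway genes and any pathway list gene called. The 3 genes most like each member and markers given beside a result are named too. An item withheld for evaluation is not reported here.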

Additional observations from a re-analysis of the deposited data

How the results depend on the processing

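Each of the 27 log2 fold changes of the 9 genes was recomputed under 19 alternatives, giving 513 values. Of these, 483 kept their direction and their side of the threshold, 5 passed where the reported value did not, all for Socs1 in KO against WT, and 25 changed sign, for 13 results whose reported size was at most 0.197. Accordingly, 1 of the 9 genes rather than 0 was called in KO against WT with no filter, with the DESeq2 Wald test, with edgeR's exact test and with the 6 compared libraries alone, and 0 to 1 when a library was left out. The cause was not tested.

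With the Y-linked term the change in KO against WT was -0.0097 for Ifnar2, -0.075 for Ifngr1, -0.034 for Jak1 and 0.14 for Jak2, and in KO_SN011 against KO 0.17 for Ifngr1, 0.026 for Ifngr2, -0.17 for Jak2 and -0.035 for Tyk2. With no filter Tyk2 was at -0.0086 in KO_SN011 against KO. Leaving out 1 library gave KO against WT changes of -0.050 to 0.094 for Ifnar2 and -0.18 to 0.086 for Jak2. It gave KO_SN011 against KO changes of -0.22 to 0.0041 for Ifngr1, -0.10 to 0.0075 for Ifngr2, -0.15 to 0.12 for Jak1, -0.0078 to 0.050 for Jak2, -0.053 to 0.044 for Tyk2 and -0.068 to 0.73 for Socs3, and KO_SN011 against WT changes of -0.046 to 0.24 for Ifngr1, -0.023 to 0.24 for Jak1 and -0.17 to 0.10 for Jak2. The differences in log2 ratio ranged from -0.012 to 0.23 for Ifnar2 to Ifnar1 (KO against WT), from -0.15 to 0.14 (KO against WT) and -0.088 to 0.20 (KO_SN011 against WT) for Ifngr2 to Ifngr1, and from -0.29 to 0.0016 (KO against WT), -0.11 to 0.19 (KO_SN011 against KO) and -0.29 to 0.037 (KO_SN011 against WT) for Jak2 to Jak1.

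Whether replicate numbers pair the libraries was not settled. Deviations of same-numbered libraries from their group means correlated at -0.294 to 0.242. Between KO and KO_SN011 these values were 0.198, 0.242 and 0.098, against -0.216 to 0.091 for libraries of different number. The deviations also carry the sex-linked difference, so they cannot exclude a pairing. With the replicate block Socs1 was at 1.32 in KO against WT (edgeR adjusted p = 0.103), no member was called, and Cish passed in KO_SN011 against WT (adjusted p = 0.0203).

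Counts over all genes moved more. In KO against WT 313 genes were called, and 707 with no filter, 726 with DESeq2, 683 with edgeR's exact test, 751 with 6 libraries, 198 with the Y-linked term and 153 to 774 without 1 library. In KO_SN011 against KO the 0 called became 127, 183 and 127 with the first 3 of these, with 1905 genes at an unadjusted p under 0.05, and 0 to 519 without 1 library, the highest without KO_SN011 replicate 2. In KO_SN011 against WT the 213 called became 607, 806, 601, 43 and 656 in the same order, and 38 to 376 without 1 library. Counting error per library was highest for Socs1, at 11.1% to 20.4%, and Socs3, at 7.39% to 12.4%, among the 9 genes.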

Other observations

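Atrip, whose exons hold all of Trex1, stood at 15.3 ± 0.839 CPM in WT, 45.1 ± 4.30 CPM in KO and 37.3 ± 0.244 CPM in KO_SN011 (SD, n = 3), with a log2 fold change of 1.56 between KO and WT (edgeR adjusted p = 4.90e-05).

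Markers of other cells that the kidney could hold were summed by library. NK cell markers summed to 2.26 to 3.36 CPM in WT, 4.99 to 7.58 CPM in KO and 1.81 to 4.93 CPM in KO_SN011. Endothelial markers summed to 391 to 436 CPM in WT, 394 to 413 CPM in KO and 339 to 433 CPM in KO_SN011. Neutrophil markers summed to 0.587 to 4.05 CPM in WT, 2.80 to 7.73 CPM in KO and 3.51 to 8.84 CPM in KO_SN011. Fat cell markers summed to 20.6 to 80.4 CPM in WT, 10.04 to 34.0 CPM in KO and 9.22 to 34.6 CPM in KO_SN011. Ptprc, the pan-leukocyte phosphatase that also acts on Janus kinases, stood at 10.7 ± 1.16 CPM in WT, 20.0 ± 0.997 in KO and 16.8 ± 5.22 in KO_SN011 (SD, n = 3), and missed the threshold between KO and WT (log2 fold change 0.91, edgeR adjusted p = 0.0557).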
